A study of Ovis aries and Mus musculus with 10 samples.

Results

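The mammary gland of ewes at lactation day 60 was set against the gland at gestation day 125, late in pregnancy, on 1 microRNA (miRNA) array for each stage. Members were the mouse miRNAs that the scanner software called detected on at least 1 of these 2 arrays. They numbered 173, out of 567 mouse miRNAs with probes. Both arrays detected 139 of them, and 17 were seen in lactation only and 17 at gestation day 125 only. Over all 10 arrays of the series, 267 miRNAs were detected.

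The series measured total RNA from snap-frozen mammary tissue of sheep and of CD1 mice, untreated, and each stage was hybridised once. The other sheep arrays were cycle day 15 and gestation days 14 and 64, and the mouse arrays used here were lactation day 2 and gestation day 17. The labels give neither the breed of the ewes nor the number of animals behind an array. The probes were designed for mouse miRNAs, so a sheep miRNA of different sequence may bind them less well. Both sheep arrays compared lay on the same slide, as did the other arrays used here. With 1 array a stage, no test between the stages was possible, and every difference below describes these 2 arrays.

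A miRNA is a short RNA cut from a hairpin that guides Argonaute proteins to messenger RNAs and lowers their output. Many come from clusters transcribed as 1 unit, and miRNAs with the same seed, the bases near the 5′ end that pair with the target, share targets. Late in pregnancy the gland fills with dividing and differentiating alveolar epithelium, and in established lactation that epithelium secretes milk, which itself carries miRNAs.

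Each of the 2 arrays detected 156 miRNAs. For the 94 miRNAs found on every array of the series, the 75th percentile of signal was 788 intensity units in lactation and 939 at gestation day 125. The other sheep arrays were brighter, with 1561 to 1998 units, and detected 198 to 208 miRNAs. The 2 late stages are thus also the 2 dimmer sheep arrays. In courses over the sheep arrays, stage and brightness cannot be told apart. Levels below are log2 of the signal relative to the 75th percentile of the 94 miRNAs on the same array. Values under a floor of -5.11, a cut-off common to all arrays of the series, were set to it. The lowest levels of miRNAs with a probe well above background were -9.77 in lactation and -6.92 at gestation day 125. The floor is thus not the detection limit of these 2 arrays. Of the members, 91 lay above the floor on both arrays, 9 in lactation only, 24 at gestation day 125 only and 49 on neither. The 49 show no difference by this rule, although each was detected on at least 1 array and their signals may differ. For the 91, log2 levels on the 2 arrays had a Pearson correlation of 0.89 across miRNAs, which are not independent replicates. A ± sign below gives the standard error between spots, which had a median of 0.02 on the log2 scale for the 91 and covers spots within the arrays only. It says nothing about the spread between ewes.

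The arrays carried the marks of mammary tissue. All 5 miRNAs of the epithelial miR-200 family and the basal epithelial miR-205 lay above the floor on both. The fibroblast and smooth muscle miRNAs, endothelial miR-126-3p and the leukocyte miR-142-3p were also measured. The liver miRNA miR-122 and the neuronal miR-9 and miR-124 were not detected on either array. Of the neural list, miR-218 and miR-128 were detected on both arrays, miR-218 at the floor on both and miR-128 above it only at gestation day 125, with 16.2 units in lactation and 56.3 units at gestation day 125. The 2 muscle miRNAs among the members, miR-1 and miR-133b, lay at the floor on both. In tissue RNA, fewer cells of a type and less RNA per cell cannot be told apart.

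Lactation day 60 differed from gestation day 125 by 2-fold or more for 31 miRNAs. The 8 that were higher are 4.62% of the members, and the 23 that were lower are 13.3%. miR-375, miR-146b, the whole miR-29 family, miR-204, miR-148a and miR-451 were higher. Most of the clusters of miR-17 and miR-106b, miR-30a, the imprinted miR-127 and miR-379, the stromal miR-199b and miR-214, and miR-142-3p were among the lower ones. The median difference was 0.00 over all members and -0.18 over the 91 above the floor on both arrays, of which 37 were higher and 54 lower. No spot was saturated, and the probes above the floor differed in the same direction for each of the 27 of these 31 miRNAs with at least 2 such probes. The remaining 4, miR-532-5p, miR-301a, miR-128 and miR-214, rested on 1 probe. A probe counted if it was above the floor on either array. Its value on the other array was set to the floor where lower, so some probe differences are bounds. The weaker probe differed by -0.04 for miR-210, -0.30 for miR-93 and -0.35 for miR-18a.

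**Figure D1:**
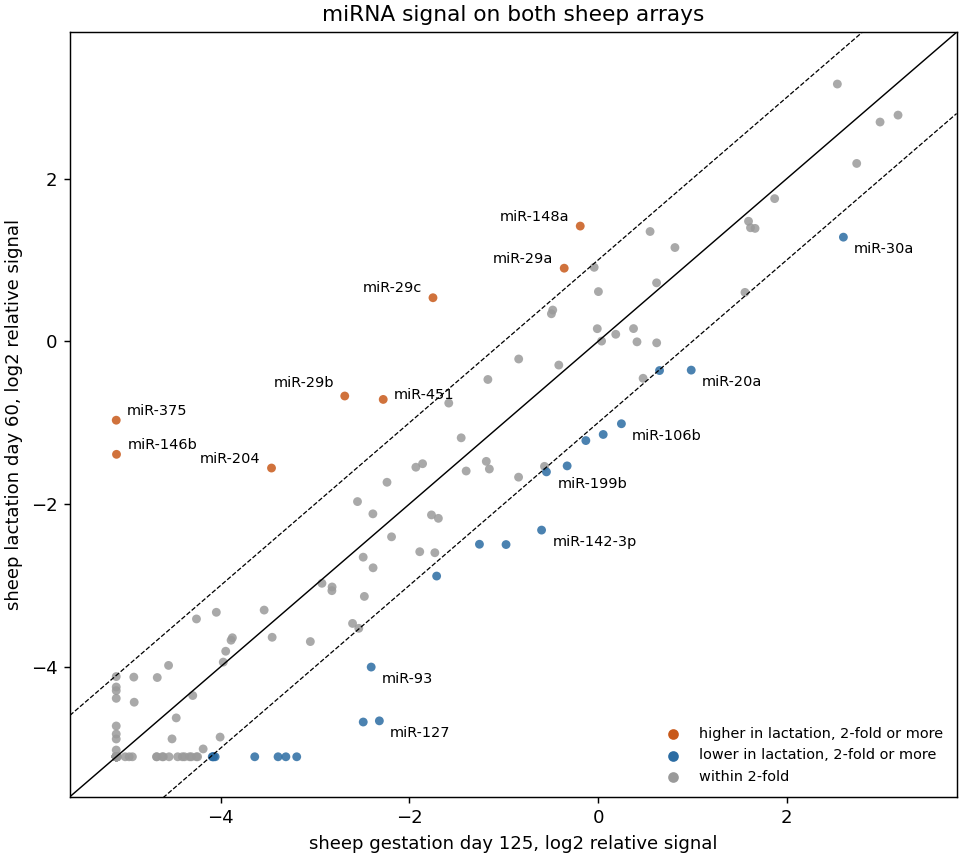
Log2 relative signal of the 173 members at lactation day 60 (vertical axis) against gestation day 125 (horizontal axis), 1 array each. The solid line marks equal levels and the dashed lines a 2-fold difference. 8 miRNAs lie above the upper dashed line and 23 below the lower one, and points at -5.11 lie at the floor.

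The balance of higher and lower miRNAs moved with the scaling. With only the miRNAs that both sheep arrays detected as the base of the percentile, 17 were higher and 11 lower, and with all miRNAs as the base, 23 were higher and 18 lower. These scalings raised the members' differences by a median of 0.30 and 0.36. All 8 higher miRNAs kept a difference of 2-fold or more under both, as did 11 and 12 of the 23 lower ones. Under both, let-7c, miR-99a, miR-199b, miR-30a*, miR-25, miR-106b, miR-15b, miR-20b and miR-532-5p fell short of 2-fold. Quantile normalization gave 14 higher and 18 lower, with miR-29a at 0.95. With another background correction (normexp with an offset of 50), 6 were higher and 7 lower, all among the 31. Under it 9 of the lower miRNAs lay at the floor on both arrays, with no difference: miR-379, miR-378, miR-18a, miR-96, miR-214, miR-128, miR-210, miR-301a and miR-532-5p.

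**Figure D2:**
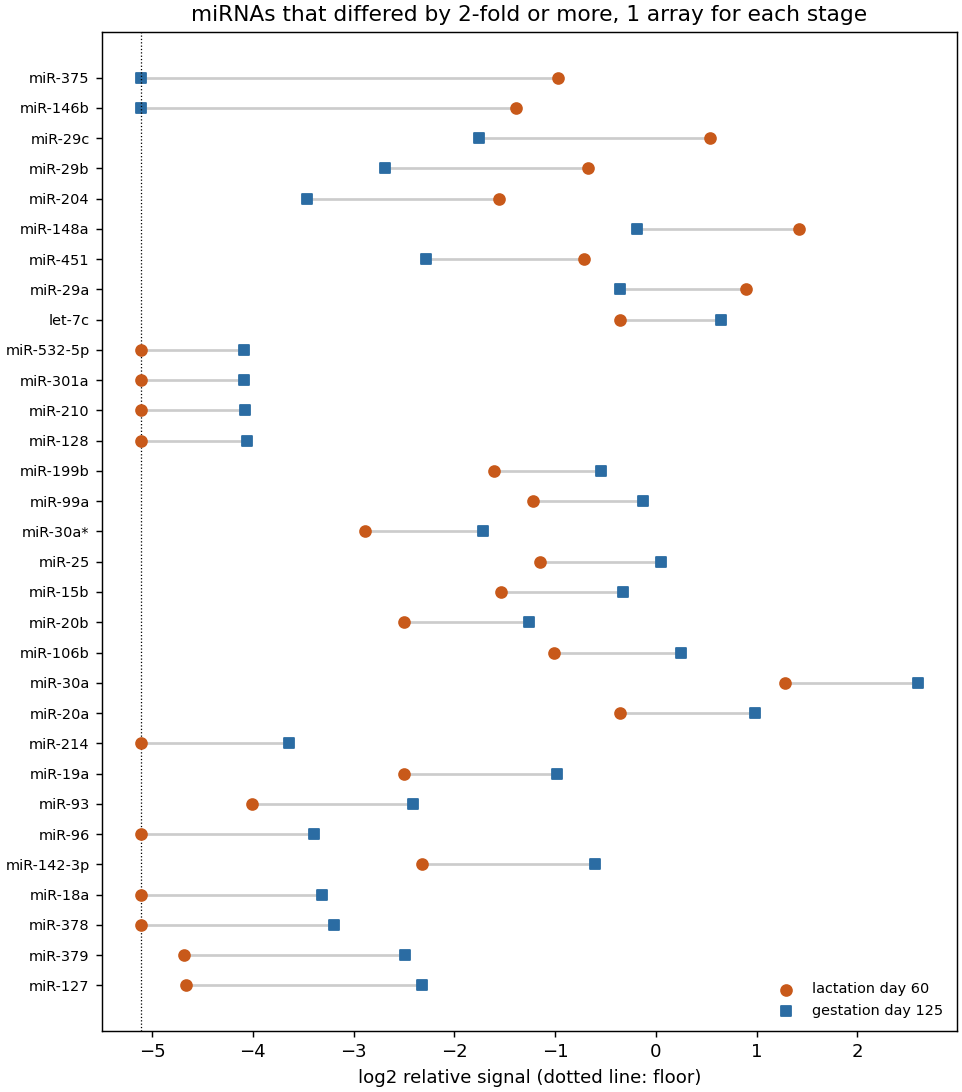
Log2 relative signal at lactation day 60 (orange circles) and gestation day 125 (blue squares) for the 31 miRNAs that differed by 2-fold or more, ordered by the difference. miR-375 has the widest gap upward, 4.14, and miR-127 the widest downward, -2.35. The dotted line is the floor of -5.11.

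miR-375, known for its control of insulin secretion in pancreatic islets, had a signal of 402 units in lactation, against -1.12 units at gestation day 125, where it was not detected. It was at least 17.6-fold higher, a log2 difference of 4.14 against the floor. Its 2 probes differed by at least 2.91 and 4.79, and with normexp the difference was 1.22. It lay at the floor on every sheep array before lactation, so lactation was the stage that stood apart. Its probe target lies on mouse chromosome 1, at chr1:74947235-74947250 of the build mm9.

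miR-146b, which dampens innate immune signalling through NF-kappa-B, had 300.9 units in lactation, against 27.3 units at gestation day 125. Its log2 difference was 3.72 ± 0.04, or 13.1-fold, from a gestation level of -5.11 just above the floor. The earlier sheep arrays were also low, with -4.91 in cycle and -4.35 and -5.11 at gestation days 14 and 64. With probe values under the floor set to it, its 2 probes differed by 1.84 and 3.57. With normexp the difference was 0.86, under 2-fold. Its hairpin's other arm, miR-146b*, lay at the floor on both arrays, and its relative miR-146a was detected on neither.

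miR-148a, abundant in milk and a repressor of the DNA methyltransferase DNMT1, had 2105 units in lactation, against 823 units at gestation day 125. The log2 difference was 1.61 ± 0.01, with both probes between 1.59 and 1.61. Its level was -1.70 in cycle, then -2.14, -2.75 and -0.19 over gestation days 14, 64 and 125, and 1.42 in lactation. Gestation day 125 thus already lay above the other gestation days. Its seed relatives did not share the difference: miR-152 had 0.23 ± 0.03 and miR-148b, near the floor, -0.37 ± 0.07.

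miR-451, made in red blood cells without Dicer, had 480.4 units in lactation, against 194 units at gestation day 125, a log2 difference of 1.56 ± 0.01. Its level stayed between -2.77 and -2.28 on the other 4 sheep arrays and was -0.71 in lactation. The other red cell miRNAs, miR-144 and miR-486, were not detected on either array. The summed relative signal of the 3 red cell miRNAs was 0.62 in lactation and 0.21 at gestation day 125. The part of blood in this difference was not tested.

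All 3 members of the miR-29 family, which represses collagens and other matrix genes, were higher in lactation, by a median of 2.01 beside 0.00 for all members. miR-29c had 1143 units in lactation, against 279 units at gestation day 125, a log2 difference of 2.29 ± 0.02. miR-29b differed by 2.01 ± 0.01, with 495 against 146 units, and miR-29a by 1.26 ± 0.02, with 1470.1 against 732 units. The probe targets of miR-29b and miR-29c lie close together, at chr1:196863287-196863307 and chr1:196863794-196863815 of mm9, and that of miR-29a lies on chromosome 6. A single position was kept for each miRNA, so further loci of these miRNAs are not covered. The passenger strand miR-29c* was above the floor in lactation only, at least 0.86 higher on the log2 scale.

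For this family the low stage was gestation day 125. The levels of miR-29c were -0.58 in cycle, -0.12, 0.34 and -1.75 over the gestation days, and 0.54 in lactation. miR-29b had -0.61 in cycle, -0.09, 0.23 and -2.69 over gestation, and -0.67 in lactation. miR-29a had 0.85 in cycle, 1.31, 1.83 and -0.36 over gestation, and 0.90 in lactation. In lactation, miR-29a and miR-29b thus lay below gestation days 14 and 64, while miR-29c lay above every other sheep array.

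miR-204, a miRNA of epithelia such as those of eye and kidney, had 268 units in lactation, against 85.2 units at gestation day 125. The log2 difference was 1.90 ± 0.03, and 0.73 with normexp. Levels were -1.94 in cycle, -2.73, -2.90 and -3.46 over gestation, and -1.56 in lactation, so lactation was closest to cycle. Among these 8 miRNAs, 6 had their highest sheep level in lactation, and 4 had their lowest gestation level at day 125. Of all members, 13.3% and 29.5% did, but the choice of the 8 favours both, and nothing is read from these shares.

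**Figure D3:**
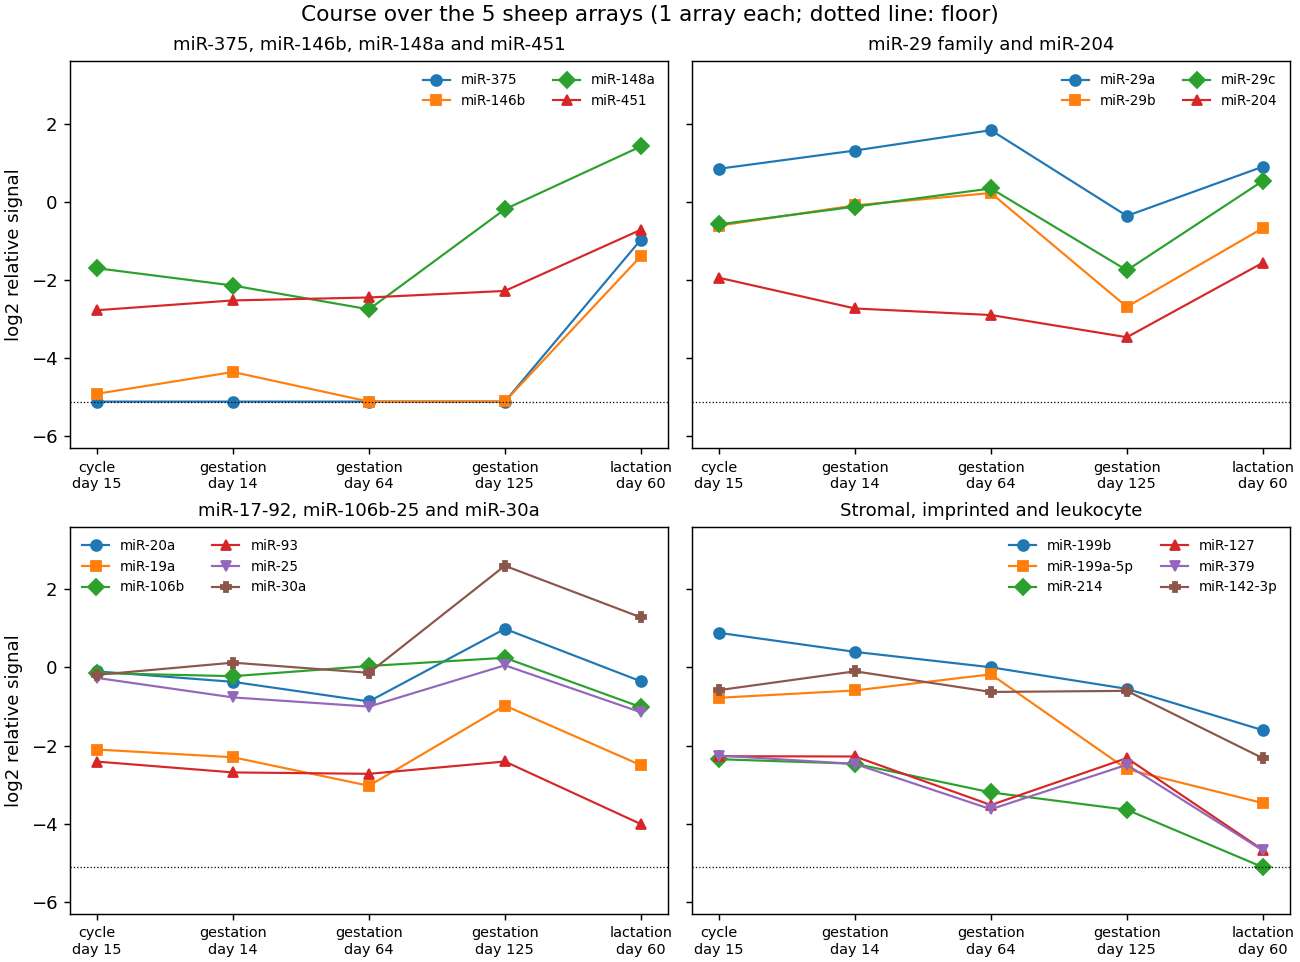
Log2 relative signal over the 5 sheep arrays in order of stage, 1 array each, with the dotted line at the floor of -5.11. miR-375 leaves the floor only in lactation, the miR-29 family dips at gestation day 125, and miR-20a, miR-19a and miR-30a peak there.

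Members just under the 2-fold line were also higher. miR-151-5p had 1481 units in lactation, against 912 units at gestation day 125, a log2 difference of 0.95 ± 0.01. miR-22 differed by 0.87 ± 0.01 and miR-212 by 0.84 ± 0.04, and miR-139-5p, at the floor at gestation day 125, by 0.99. The paralogues miR-103 and miR-107, which reside in pantothenate kinase genes, differed by 0.62 ± 0.02 and 0.82 ± 0.01. Their sequences are nearly the same, so either probe may bind both. Endothelial miR-126-3p, from the EGFL7 gene, differed by 0.80 ± 0.01. miR-23a and miR-27a, of 1 cluster, differed by 0.83 and 0.61, whereas miR-23b and miR-27b, of its paralogous cluster, differed by 0.16 and -0.20.

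The miRNAs of the miR-17 cluster and its paralogues, which promote proliferation and survival, were lower in lactation. Of the 11 members, 7 were lower by 2-fold or more and 0 higher, beside 13.3% lower over all members, with a median of -1.24 beside 0.00. The 7 became 3 with all miRNAs as the base of the percentile, and 4 with those detected on both sheep arrays or with normexp. miR-20a had 617 units in lactation, against 1861 units at gestation day 125, a log2 difference of -1.34 ± 0.02. miR-19a differed by -1.52 ± 0.01, miR-19b by -0.96 ± 0.02 and miR-92a by -0.93 ± 0.01. miR-18a, at the floor in lactation, was at least 3.48-fold lower. miR-17 and miR-106a lay at the floor on both arrays, although their sequences are close to those of miR-20a and miR-20b. They were detected at gestation day 125 only. miR-17 had 3.07 units in lactation, against 23.8 units at gestation day 125, and miR-106a had 2.34 against 20.4 units.

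The cluster of miR-106b, miR-93 and miR-25, from an intron of the replication gene MCM7, was also lower. miR-93 had 49.1 units in lactation, against 177 units at gestation day 125, a log2 difference of -1.60 ± 0.02, and -0.05 with normexp. Its 2 probes, with values under the floor set to it, were at -1.55 and -0.30. miR-106b differed by -1.26 ± 0.01 and miR-25 by -1.20 ± 0.02. The 3 lay in lactation below every other sheep array. In both clusters the members above the floor were highest on the sheep arrays at gestation day 125, although miR-93 had -2.41 both in cycle and at gestation day 125. miR-20a had -0.37, -0.87 and 0.99 over gestation days 14, 64 and 125, and -0.35 in lactation. miR-19a had -2.30, -3.03 and -0.98 over these days, and -2.50 in lactation. The lactation values of these 2 thus lay close to those of early gestation.

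Both arms of the miR-30a hairpin were lower. miR-30a had 1915 units in lactation, against 5694 units at gestation day 125, a log2 difference of -1.32 ± 0.02. miR-30a*, chosen for naming after its values were seen, had 107 against 287 units, a difference of -1.17 ± 0.02. Their probe targets lie at chr1:23279118-23279134 and chr1:23279159-23279175 of mm9. miR-30a had -0.19 in cycle, 0.12, -0.14 and 2.60 over gestation, and 1.28 in lactation, so both late stages were above the rest. The other 4 members of the family differed by -0.48 for miR-30c, -0.37 for miR-30e, -0.21 for miR-30d and 0.26 for miR-30b, a family median of -0.37.

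miR-127 and miR-379, of the imprinted Dlk1-Dio3 region on mouse chromosome 12, were the lowest in lactation relative to gestation day 125. miR-127 had 31.0 units in lactation, against 188 units at gestation day 125, a log2 difference of -2.35 ± 0.05. miR-379 had 30.7 against 167 units, a difference of -2.19 ± 0.03. Both were near the floor in lactation, and with normexp miR-127 differed by -0.11 and miR-379 lay at the floor on both arrays. At gestation day 64 they were at -3.52 and -3.63, lower than at days 14 and 125. Of the 10 members of this list, 2 were lower by 2-fold or more, beside 13.3% over all members, 0 were higher and 4 lay at the floor on both arrays. Its median was -0.10, and between -1.76 and 0.00 under the alternatives. The 2 became 8 with a floor 4 times lower, where 45 of all 173 members were lower. They became 5 without scaling, beside 46 of all members, and 0 with normexp, beside 7. The count and median of this list thus depend on the floor.

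miR-199 and miR-214 miRNAs, which are typical of fibroblasts and other mesenchyme, were lower. miR-199b had 259 units in lactation, against 642 units at gestation day 125, a log2 difference of -1.06 ± 0.01. miR-199a-5p differed by -0.87 ± 0.03 and miR-199b* by -0.83 ± 0.05. miR-214, at the floor in lactation, was at least 2.77-fold lower. The smooth muscle miRNAs miR-143 and miR-145 went the other way, at 0.38 ± 0.02 and, from the floor, 0.81. The 5 fibroblast and smooth muscle miRNAs had a summed relative signal of 0.83 in lactation and 1.22 at gestation day 125, against 2.72 to 3.00 on the earlier sheep arrays. Their median was -0.87, and 0.00 with normexp.

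Among the leukocyte miRNAs, miR-142-3p had 158 units in lactation, against 620 units at gestation day 125. Its log2 difference was -1.72 ± 0.02, and its lactation level of -2.32 lay below the -0.63 to -0.10 of the other 4 sheep arrays. miR-142-5p, of the same hairpin, was at the floor in lactation and -4.41 at gestation day 125. miR-223 and miR-342-3p lay at the floor in lactation, with differences of -0.43 and -0.09, and miR-150 and miR-155 were not detected on either array. The list summed to 0.26 in lactation and 0.79 at gestation day 125. The part of leukocyte number in these differences was not tested.

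miR-99a differed by -1.09 ± 0.02, with 338 units in lactation, against 858 units at gestation day 125. let-7c differed by -1.01 ± 0.01, and miR-125b-5p by -0.64. miR-15b, of the miR-15/16 seed family, differed by -1.20 ± 0.02, while miR-15a and miR-497 of that family had -0.22 and 0.12. miR-378, from the gene of the metabolic coactivator PGC-1-beta, was at least 3.77-fold lower and miR-96 at least 3.28-fold, both at the floor in lactation. miR-301a and miR-128 were at least 2.04-fold and 2.07-fold lower. miR-210, a hypoxia-induced miRNA, and miR-532-5p were at least 2.05-fold and 2.02-fold lower, and were picked for naming after their values were seen. Of the 23 lower miRNAs, 14 lay below every other sheep array in lactation, and 14 lay above days 14 and 64 at gestation day 125. Of all members, 22.5% and 34.1% did, but the choice of the 23 favours both, so these shares are no comparison.

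Several families that mark or dominate mammary tissue differed by less than 2-fold. The miR-200 family, which keeps epithelial identity by repressing ZEB1 and ZEB2, had 5 of 5 members lower and a median of -0.22. miR-200c had 2660.1 units in lactation, against 3435 units at gestation day 125 (-0.12 ± 0.01), and miR-429 had the widest difference at -0.87 ± 0.01. This median turned to 0.14 when scaled to all miRNAs and to 0.08 when scaled to those detected on both sheep arrays, and was 0.00 after quantile normalization. On the sheep arrays the summed signal of the family was 4.82 in cycle, 4.28, 2.92 and 11.4 over gestation, and 9.95 in lactation, so both late stages lay above the others. miR-205, of basal epithelium, differed by 0.27 ± 0.02.

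The let-7 family, linked to differentiation, had a median of -0.29 over 9 members, with let-7c alone past 2-fold and let-7g at 0.10. The median turned to 0.07 when scaled to all miRNAs and was 0.00 when scaled to those detected on both sheep arrays. Under both of these scalings let-7c fell short of 2-fold. miR-21, a growth-promoting miRNA, had 3590.2 units in lactation, against 6278 units at gestation day 125, a difference of -0.55 ± 0.01. miR-26a and miR-26b differed by 0.34 ± 0.01 and 0.70 ± 0.01. The Hox-cluster miRNA miR-10b differed by 0.50 ± 0.01, while miR-10a, miR-196a and miR-196b lay at the floor on both arrays. Of the lists with at least 2 members, the miR-29 family and the miR-17 group alone had a median of 2-fold or more.

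**Figure D4:**
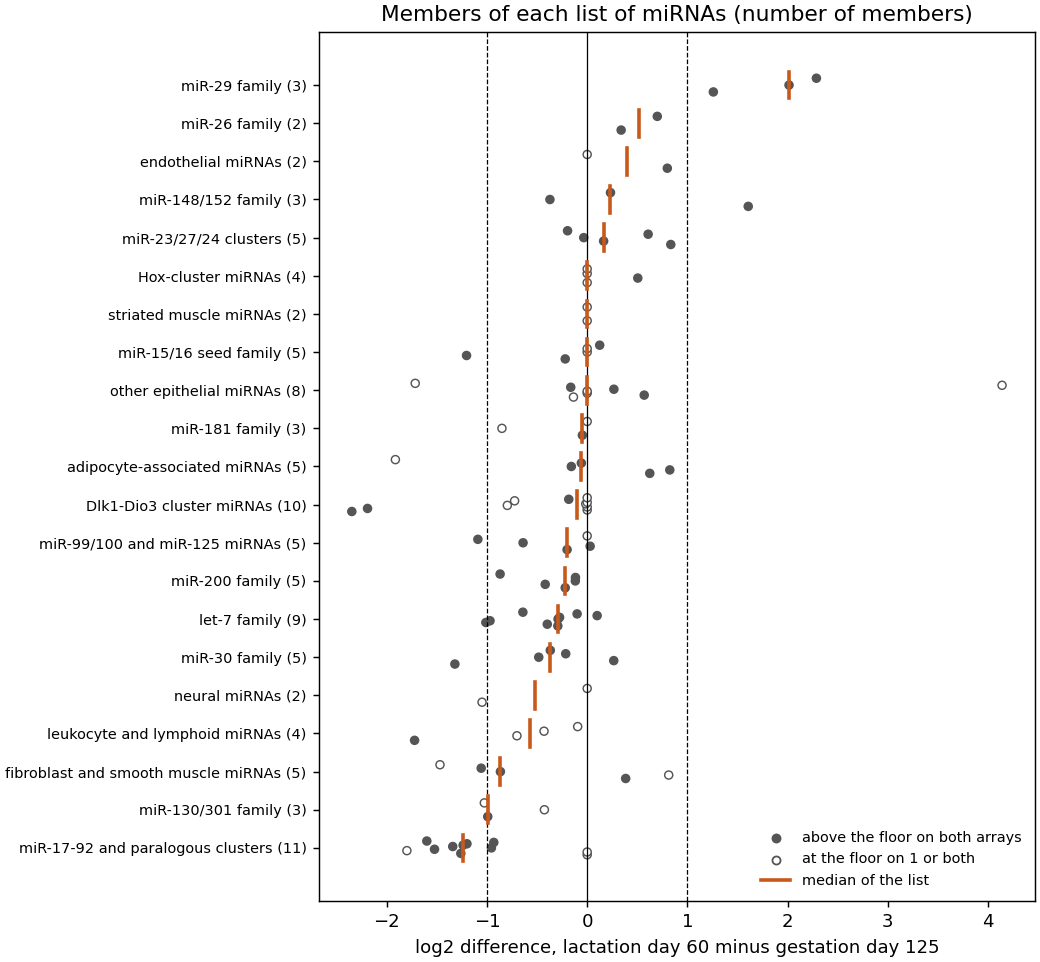
Log2 difference, lactation day 60 minus gestation day 125, for each member of the lists with at least 2 members, with the median of each list in orange. Filled points lie above the floor on both arrays and open points at the floor on 1 or both. The medians of the miR-29 family, 2.01, and of the miR-17 group, -1.24, lie outside the dashed lines at 2-fold.

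Some members of 1 hairpin or 1 cluster lay on the same side and others did not. Arms were paired by name. Of the pairs above the floor on both arrays, miR-30a and miR-30a* were both lower, and miR-140 and miR-140* were at 0.24 and 0.54. miR-199b and miR-199b* were both lower too. Their probe targets lie on mouse chromosomes 1 and 2, so this pair is not shown to come from 1 hairpin. miR-125a-3p, at 0.79, and miR-125a-5p, at 0.03, were further apart. Clusters with members above the floor on both sides of 0 were miR-30b and miR-30d, at 0.27 and -0.21, miR-23b and miR-27b, and let-7e and miR-125a-3p, at -0.29 and 0.79. The second arms in these pairs, miR-146b* and miR-199b* above included, and miR-140 were named after their values were seen. Related probes may bind the same RNA, so likeness within families is not independent evidence.

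The step from gestation day 17 to lactation day 2 in mouse, which shares no array with the sheep step, was given beside it. Of the 173 members, 5.2% were higher and 7.51% lower in mouse by 2-fold or more, and 32.4% lay above 0 and 37% below 0. The rest were at the floor on both mouse arrays and differed by exactly 0. Of the 8 miRNAs higher in sheep 0 were there, and of the 23 lower ones 2. All of these lay above the floor on a sheep array, so the shares above and below 0 are not a like background for the counts below. Of the 8 miRNAs higher in sheep lactation, 6 were above 0 in mouse, and 3 of them by 2-fold or more. miR-146b differed by 1.29 in mouse, with 0.43 in lactation and -0.85 in gestation. miR-375 differed by 1.27, from the floor in gestation, and miR-148a by 1.01. miR-204 ran the other way in mouse, at -1.33, and miR-29c was at -0.13.

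Of the 23 lower miRNAs, 17 were below 0 in mouse, 4 above and 2 at the floor on both mouse arrays. miR-99a, at -1.21, and miR-214, at -1.09, were lower by 2-fold or more in mouse too. miR-30a, at 0.37, and miR-96, at 0.84, were higher there. Over the 81 members above the floor on all 4 arrays, the 2 steps had a Pearson correlation of 0.37 and a Spearman correlation of 0.40 across miRNAs. These points share their arrays, and mouse lactation day 2 is an earlier stage of lactation than sheep day 60. Over these 81 members the median mouse difference was -0.04, so values below 0 were common among them. Nothing is read from the counts above and below 0 in mouse.

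**Figure D5:**
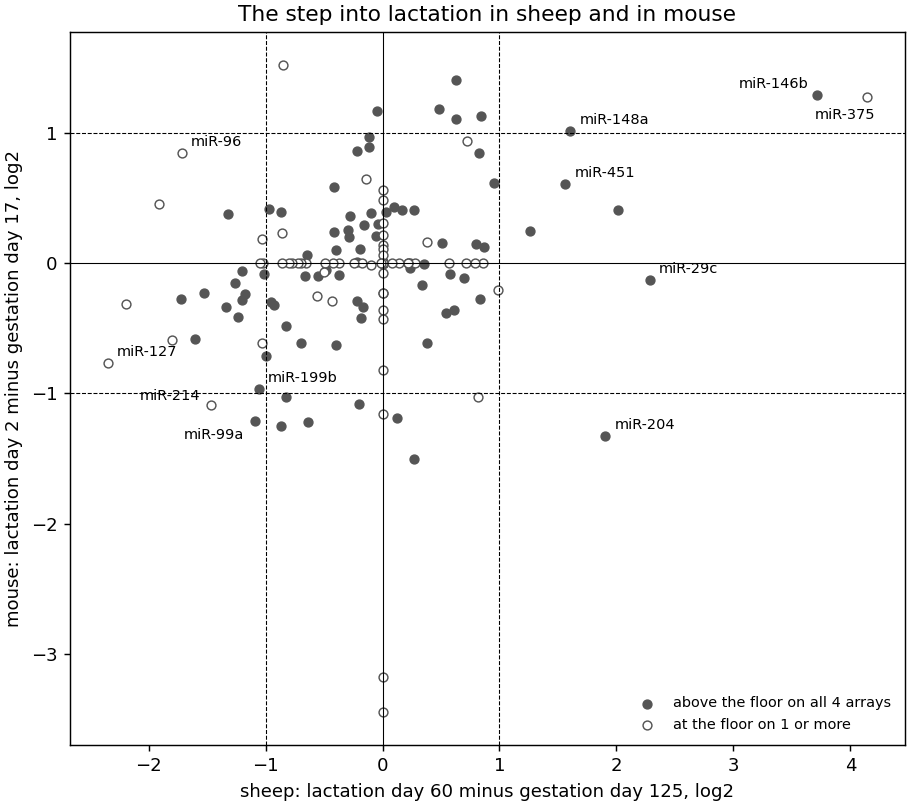
Log2 difference from late gestation to lactation in mouse (vertical axis, day 2 minus day 17) against sheep (horizontal axis, day 60 minus day 125) for the 173 members. Filled points lie above the floor on all 4 arrays, and dashed lines mark 2-fold. miR-146b, miR-375 and miR-148a lie at upper right, and miR-204 at lower right, with 1.90 in sheep and -1.33 in mouse.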

How the data were processed

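Total RNA, 100 ng a sample, was labelled with Cy3 and hybridised to 1-colour Agilent miRNA arrays, per the labels' protocols. The deposited scanner files hold intensity values with background and spatial trend removed array by array and arrays not scaled to each other, and flags of 0 or 1 (other values), per the file headers. The scanner software was Feature Extraction, version 10.5.1.1 in those headers and 9.5 in the submitters' processing notes. Probe targets have mm9 coordinates, per the file headers. The deposited value table is an intensity too. On these 2 arrays it equalled the scanner's total signal per miRNA times 1.34 (lactation) and 1.31 (gestation day 125), within 0.1% for every miRNA with a total above 50. Its column medians were -2.80 and -3.94. Its scaling basis is not given in the sources used here.

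Outlier spots were dropped, and the rest averaged to probes and then to miRNAs. Scaling used each array's own 75th percentile over 94 miRNAs, those that all 10 arrays detected. The floor, 0.029 in relative signal, is the highest over the arrays of the 5th percentile of detected miRNAs. A miRNA at the floor on 1 array gives a bound. A difference of 1 on the log2 scale was the threshold, and the number of arrays limits the precision. Steps were tested on simulated data in which only miRNAs detected on both arrays and well above the floor were changed. Bounds at the floor and the choice of scaling were thus not tested. R 4.3.3 with limma 3.58.1 gave normexp. The alternatives were other scalings, normexp, the value table, total signal, the brightest probe, a lower floor and other filters.

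Open to naming were the 12 largest differences each way among those detected on both arrays, the 10 highest in lactation, and list members. So were up to 5 of the largest bounds each way among those detected on 1 array only. Of the miRNAs detected in lactation only, miR-375 and miR-705 alone gave upward bounds. Not all miRNAs open to naming are given above, and miR-720, the highest in lactation, is among those left out. Members and lists were chosen with earlier results of these data known. Sequences and shared seeds were not analysed here.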

Additional observations from a re-analysis of the deposited data

Results flagged for a closer look

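miR-204 differed in opposite directions in the 2 species. It was 1.90 higher at sheep lactation day 60 than at gestation day 125, and at -1.33 in mouse lactation day 2 against gestation day 17, on the log2 scale. This rests on 1 array for each stage, and the difference between the species was not tested. The mouse lactation level of -5.07 lay next to the floor of -5.11.

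A probe set for a miRNA of a mouse gammaherpesvirus, mghv-miR-M1-2, which no comparison used, was detected on both sheep arrays. Its signal was 21.9 units in lactation and 20.2 units at gestation day 125, and it was detected on all 10 arrays.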

How the results depend on the processing

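None of the 31 differences of 2-fold or more changed sign under the 12 alternatives chosen at the start or the 1 added later. The other filters and the lower floor kept the main scaled values, so they could not change a sign. The other percentiles, the median and no scaling shifted members by medians from -0.25 to 0.36. That is well inside the threshold of 1, so a change of sign was not open to them either. The lack of sign changes is thus little support for the 31. With normexp 9 lower ones lay at the floor on both arrays and had no direction. With 8 higher and 23 lower in the main result, the 75th percentile over all miRNAs gave 23 higher, the one over miRNAs detected on both sheep arrays 17 higher and 11 lower, and quantile normalization 14 higher. No scaling gave 46 lower and a median over all members of -0.37, normexp 7 lower, and a floor 4 times lower 19 higher, 45 lower and a median of -0.22. Keeping only members above the floor on both arrays, a choice made after seeing the data, gave 15 lower and a median of -0.18. The lists with a median of 2-fold or more numbered 2 in the main result, 1 with either other 75th percentile, 1 with normexp, 7 without scaling, 4 with the authors' value table and 7 with the lower floor. The miR-29 family median stayed between 1.47 and 2.37, and that of the miR-17 group between -1.49 and -0.88. Relative to the main values, all members shifted by a median of -0.25 without scaling and -0.14 in the authors' value table. Normexp adds an offset of 50 units, more than the signal of the dimmest members. No paired analysis was possible because each stage and day has 1 array and the labels give no shared animal numbers. Leaving out a replicate was not possible for the same reason. Low signal limits the differences of the members at the floor.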
